A study of Mus musculus with 18 samples.

Results

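The genes described here are cytochrome P450 genes of the mouse in liver, epididymal white adipose tissue (eWAT) and quadriceps muscle. The deposited table lists 100 names that start with Cyp and a number. The Cyp4a subfamily and the bile acid enzymes Cyp7a1, Cyp7b1, Cyp8b1, Cyp27a1 and Cyp39a1, 13 names in all, were set aside, which left 87. Of these, 55 had a mean of at least 0.5 FPKM over the 6 libraries of at least 1 tissue and are the genes of this report, among 21899 genes in the table. FPKM are fragments per kilobase of a gene, scaled to the size of the library, so that levels can be compared between genes of different length. The other 32 names were below the minimum, 8 of them at 0 in all 18 libraries. The genes just inside it were Cyp2c69 with 0.537 FPKM and Cyp2ab1 with 0.551 FPKM in their highest tissue, and those just outside were Cyp2b10 with 0.402 FPKM and Cyp2j8 with 0.398 FPKM.

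Cytochrome P450 enzymes carry a haem iron, take electrons from P450 oxidoreductase, cytochrome b5 or ferredoxin, and use them to put an oxygen atom from molecular oxygen into a substrate. The Cyp1, Cyp2 and Cyp3 families of the liver oxidise drugs, toxins, fatty acids and steroids, mostly in the endoplasmic reticulum of hepatocytes, and several are most abundant near the central vein. Members of the Cyp2j, Cyp2u and Cyp4 groups oxidise arachidonic acid and other fatty acids, products of which act on blood vessels and on salt handling by the kidney. Other members make or break down steroid hormones, retinoic acid, vitamin D and cholesterol.

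The RNA came from C57BL/6 wild-type mice that were 18 weeks old. The control group (CON) ate chow and drank tap water, and the other group (HSD) had received a high-salt diet with saline to drink for 12 weeks; according to the methods of the study, all were males. There were 3 CON and 3 HSD libraries for each of the 3 tissues, 18 in all, each labelled with 1 mouse. Library names end in L for liver, W for eWAT and M for muscle, and the same name stem marks the same mouse. RNA was depleted of rRNA, so that transcripts of the mitochondrial genome stayed in the libraries. The methods of the study name the epididymal depot for the libraries labelled WAT and the quadriceps for those labelled muscle.

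Libraries held between 7628071 and 16637489 fragments, recovered from the FPKM and the gene lengths. In liver, transcripts of the 13 mitochondrially encoded genes took 60.8% of the fragments of CON14L, 37.8% of CON72L, 25.7% of CON16L, 16.3% of HS2L, 15.4% of HS4L and 44.4% of HS5L, and they lower the FPKM of all other genes of a library in proportion. The summed FPKM of 26 hepatocyte markers was between 21710 and 103974 in the liver libraries, that of 9 adipocyte markers between 6555 and 21408 in eWAT and that of 11 skeletal muscle markers between 62657 and 80455 in muscle, and none of these markers was at 0 in its own tissue. A few libraries stood apart. CON16L held skeletal muscle markers at a summed 4487 FPKM, against 2.30 to 6.89 in the other liver libraries. HS3W held 16 epididymal epithelium markers at a summed 26377 FPKM, against at most 11.01 in the other eWAT libraries. Blood cell markers, 5 genes, summed to 5626 FPKM in CON16L and 237 to 842 in the other liver libraries, to 5667 in CON16W and 243 to 744 in the other eWAT libraries, and to 965 in CON16M and 124 to 224 in the other muscle libraries. Male germ cell markers, 7 genes, summed to 589 FPKM in HS2W and 292 in HS3W, and to between 0.255 and 49.4 in the other eWAT libraries. Macrophage markers, 10 genes, were lower in HSD in all 3 tissues: they summed to 68.7 to 77.6 FPKM in CON and 28.4 to 46.9 in HSD livers, to 582 to 863 in CON and 254 to 541 in HSD eWAT, and to 56.4 to 89.9 in CON and 39.8 to 42.9 in HSD muscle. Of those tested, 4 of 9 in liver, 4 of 9 in eWAT and 5 of 8 in muscle were lower in every HSD library. The shares of all genes were 3.47%, 12.4% and 15.6%. In muscle 1 marker was also lower at an adjusted p under 0.05 in limma and at least 2-fold. Such differences in either direction were 0.323% of all genes. A further marker, 1 of the 10, was at 0 throughout in muscle. The part of these cell types in the results was not tested. CON16L, HS5L and HS5W are not among the libraries of the study's quality table, so values over the study's libraries are given beside those over all libraries.

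The 55 genes were mostly liver genes. Over the 6 libraries of a tissue, a mean of 0.5 FPKM was reached by 48 genes in liver, 38 in eWAT and 16 in muscle, and 15 genes reached it in all 3 tissues. The highest of the tissue means was in liver for 39 genes, in eWAT for 15 and in muscle for 1. The CON liver was led by Cyp2e1, which oxidises ethanol and acetone, with 528 ± 311 FPKM (SD, n = 3). It was followed by the male-biased steroid 16α-hydroxylase gene Cyp2d9 with 383 ± 192 FPKM, by Cyp2d10 with 330 ± 204 FPKM and by Cyp1a2, a caffeine-oxidising enzyme, with 312 ± 202 FPKM. Cyp3a25 had 302 ± 68.9, Cyp2c54 250 ± 99.0, Cyp2d26 233 ± 132, the epoxygenase gene Cyp2c23 206 ± 105, Cyp2c37 200 ± 110 and Cyp2c50 176 ± 78.3 FPKM. The SDs of most of these genes were so wide that neighbours in this order did not differ beyond the spread between mice. These 10 genes made up 71.8% of the summed FPKM of the 55 genes.

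**Figure D1:**
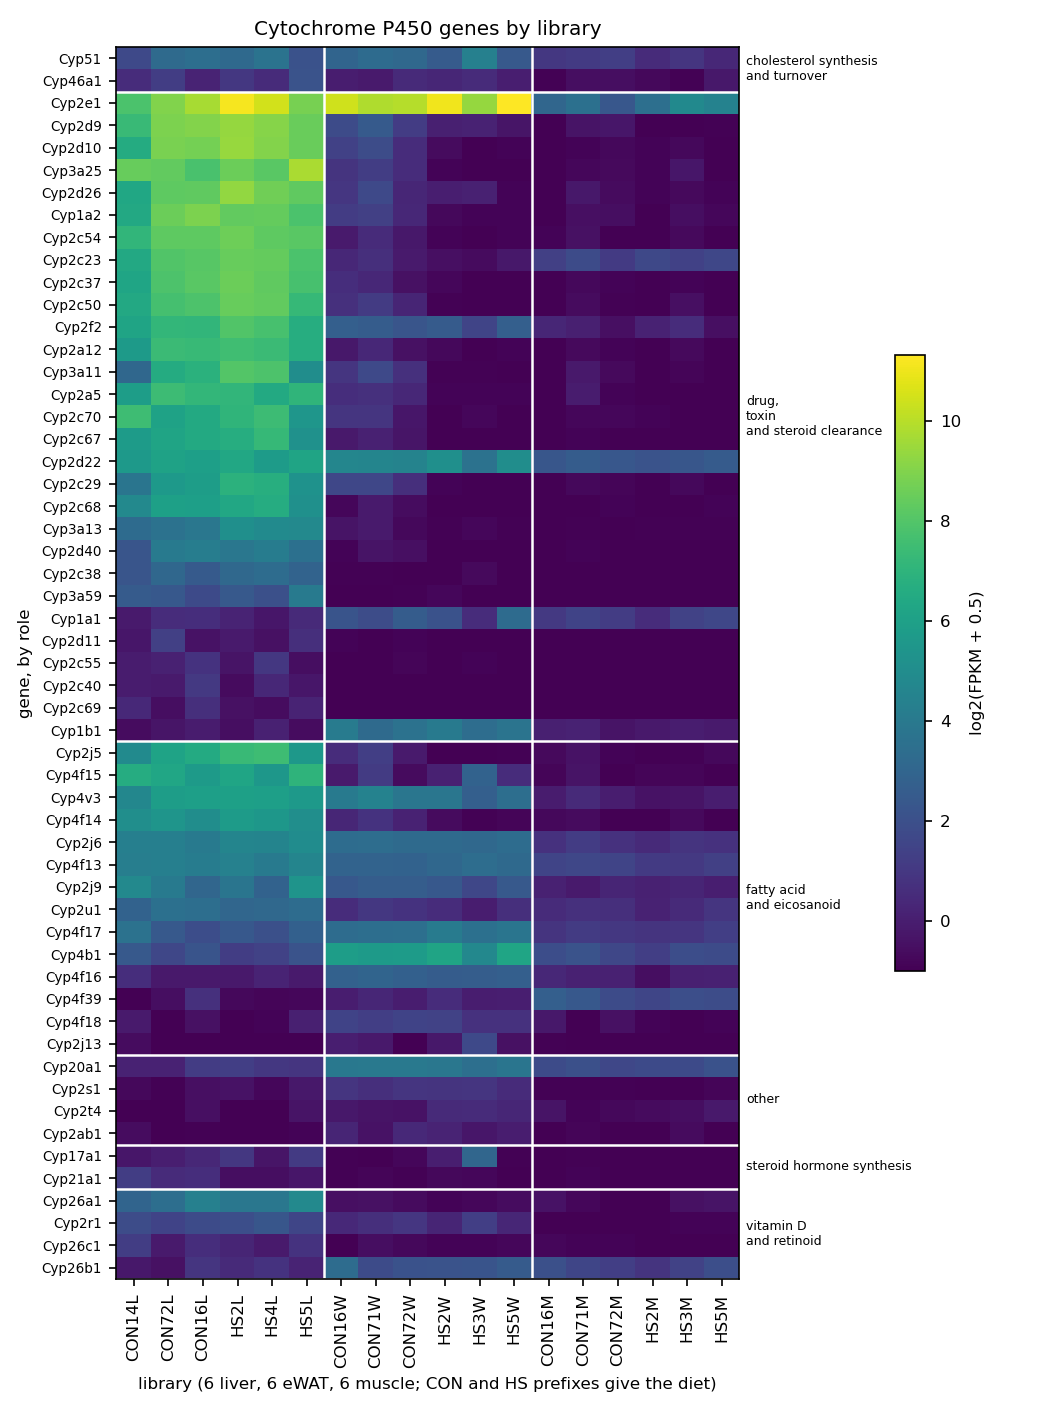
Level of each of the 55 cytochrome P450 genes (rows, grouped by role and ordered by liver level) in each of the 18 libraries (columns), as log2(FPKM + 0.5) on the colour scale. Most genes are bright in the 6 liver libraries on the left, Cyp2e1 is bright in liver and eWAT, and Cyp1b1, Cyp4b1 and Cyp20a1 are brighter in eWAT than in liver.

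In CON eWAT, Cyp2e1 alone made up 83.6% of the members' summed FPKM, with 1112 ± 253 FPKM (SD, n = 3). Cyp4b1, a fatty acid and furan oxidising enzyme, followed with 54.8 ± 2.87 FPKM, then Cyp2d22 with 23.9 ± 1.29, Cyp4v3, a hydroxylase of polyunsaturated fatty acids, with 17.3 ± 3.88, Cyp20a1 with 15.2 ± 0.182, the oestrogen hydroxylase gene Cyp1b1 with 12.7 ± 3.97, Cyp4f17 with 10.3 ± 0.471 and Cyp2j6 with 9.64 ± 0.524 FPKM. Cyp4v3, Cyp20a1 and Cyp1b1 lay within their spread of each other. In CON muscle no member passed 10 FPKM on average. Cyp2e1 led with 7.91 ± 3.36 FPKM, followed by Cyp2d22 with 4.87 ± 0.638, Cyp4f39 with 4.62 ± 1.55, Cyp4b1 with 3.25 ± 0.659 and Cyp20a1 with 3.05 ± 0.467 FPKM. Cyp4f39, whose product makes ultra-long-chain ω-hydroxy fatty acids of the skin barrier, was the gene with its highest level in muscle.

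The choice of the 55 genes used their tissue means, so the following counts describe them and support nothing. With limma on log2(FPKM + 0.5), an adjusted p (Benjamini-Hochberg) below 0.05 and a difference of 2-fold or more, 37 of 53 tested members were higher in CON liver than in CON eWAT, where 7.01% of all genes were, and 9 were higher in eWAT, where 60.8% of all genes were. Liver was above muscle for 43 members (14.3% of all genes) and below it for 3 (32.8%). Levels in eWAT were above those in muscle for 28 (46.1%) and below for 2 (7.71%). The members of 1 subfamily could differ in tissue: Cyp1a2 had 312 FPKM in CON liver and 1.51 FPKM in CON eWAT, whereas Cyp1a1, the dioxin-inducible enzyme of the same chromosomal pair, had 0.818 FPKM in CON liver, 4.26 FPKM in CON eWAT and 1.88 FPKM in CON muscle. In the Cyp2c group, Cyp2c23 had 2.22 ± 0.692 FPKM (SD, n = 3) in CON muscle, where none of the other 11 members reached 0.5 FPKM on average.

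Neighbouring genes of a subfamily arose by duplication, and 15 members lie on chromosome 19, 8 on chromosome 17, 7 on chromosome 7, 6 on chromosome 15, 5 on chromosome 4 and 5 on chromosome 5. The subfamilies with most members were Cyp2c with 12, Cyp4f with 7, Cyp2d with 6, Cyp3a with 4 and Cyp2j with 4. Reads of close copies can be assigned to the wrong gene, so the split of a level among Cyp2c, Cyp2d or Cyp3a members is less certain than their sum. Promoters of 48 of the 55 members, from 250 bases before to 50 bases after a transcript start, were found in the RefSeq sequences of build GRCm38.p6. The promoters of 4 genes are shown because the liver, eWAT and muscle results turn on them: Cyp2e1, the leading gene of all 3 tissues, Cyp4b1, the next of eWAT, and Cyp3a11 and Cyp3a13, the Cyp3a genes with the largest liver differences. Capitals mark matches on either strand to 4 motifs, the TATA box with the letters TATAAA, the box named after its letters CCAAT, the core of the xenobiotic response element with the letters GCGTG, and an element bound by the hepatocyte factor HNF4 with the letters CAAAGTCCA. The Cyp4b1 promoter held none of them.
Cyp2e1 (chr7:140763569-140763868, strand +): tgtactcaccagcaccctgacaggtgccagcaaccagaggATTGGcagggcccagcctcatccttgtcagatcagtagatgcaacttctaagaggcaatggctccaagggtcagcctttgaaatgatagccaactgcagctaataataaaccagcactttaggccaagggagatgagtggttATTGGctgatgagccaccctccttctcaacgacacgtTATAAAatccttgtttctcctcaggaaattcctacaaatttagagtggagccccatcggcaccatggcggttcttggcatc
Cyp4b1 (chr4:115647672-115647971, strand -): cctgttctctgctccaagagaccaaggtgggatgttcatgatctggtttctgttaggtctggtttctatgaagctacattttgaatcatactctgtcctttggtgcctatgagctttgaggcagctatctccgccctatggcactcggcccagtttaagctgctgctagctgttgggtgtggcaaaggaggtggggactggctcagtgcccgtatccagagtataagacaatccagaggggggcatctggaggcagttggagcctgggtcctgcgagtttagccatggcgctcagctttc
Cyp3a11 (chr5:145879805-145880104, strand -): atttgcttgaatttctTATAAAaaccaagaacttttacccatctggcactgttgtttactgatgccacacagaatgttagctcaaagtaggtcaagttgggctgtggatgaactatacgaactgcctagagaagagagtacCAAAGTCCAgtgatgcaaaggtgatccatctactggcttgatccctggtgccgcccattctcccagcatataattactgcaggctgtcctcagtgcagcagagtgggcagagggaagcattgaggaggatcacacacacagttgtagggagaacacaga
Cyp3a13 (chr5:137921570-137921869, strand -): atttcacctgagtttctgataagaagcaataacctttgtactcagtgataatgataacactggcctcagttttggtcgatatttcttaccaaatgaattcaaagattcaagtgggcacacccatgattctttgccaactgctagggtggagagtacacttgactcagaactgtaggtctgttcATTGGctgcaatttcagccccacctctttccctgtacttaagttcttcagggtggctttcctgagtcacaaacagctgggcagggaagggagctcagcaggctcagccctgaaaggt
TATAAA was found on either strand in 21 of the 48 members' promoters, a share of 43.8%, against 14.2% of all 27025 promoters. CCAAT was in 25 of 48, or 52.1%, against 37.9% of all promoters, GCGTG in 13 of 48, or 27.1%, against 32.5%, and CAAAGTCCA in 6 of 48, or 12.5%, against 0.477%. Those 6 were Cyp3a11 and the chromosome 19 neighbours Cyp2c40, Cyp2c67, Cyp2c68, Cyp2c69 and Cyp2c70. Promoters of duplicated neighbours are not independent, so this share is no support for an excess. In Cyp2e1 the TATAAA starts 31 bases before the transcript start, and in Cyp3a11 the CAAAGTCCA starts 109 bases before it. Of the 12 members with a promoter and at least 100 FPKM in CON liver, 8 held TATAAA, 8 held CCAAT, 1 held CAAAGTCCA and 0 held GCGTG. Matches of letters are a description and not a binding site.

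The liver comparison asks which P450 genes differ between HSD and CON liver. None of the 48 tested members passed an adjusted p under 0.05 with at least a 2-fold difference in limma, and neither did any gene of the table (0%). At an unadjusted p under 0.05 there were 2 members, Cyp3a13 and Cyp21a1, against 5.74% of all genes. Limma voom on fragments recovered from the FPKM also called 0 members. Every HSD library was above every CON library for 2 members (8.62% of all genes) and below for 1 (3.47%). The median log2 fold change was 0.38 over the 48 members and 0.13 over all genes, and 36 members had a value above 0. With mitochondrially encoded genes left out of the library total, the medians were 0.02 and -0.20, and 25 of 48 members had a value above 0. The groups were then apart upwards for 2 members (3.05% of all genes), Cyp3a13 and Cyp2c23, and downwards for 1 (6.63%), Cyp21a1. Array weights, which give the libraries unequal weight, called 9 members, against 8.98% of all genes, and 1 fit over all tissues called 2, Cyp3a13 and Cyp21a1, against 0.543% of all genes.

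**Figure D2:**
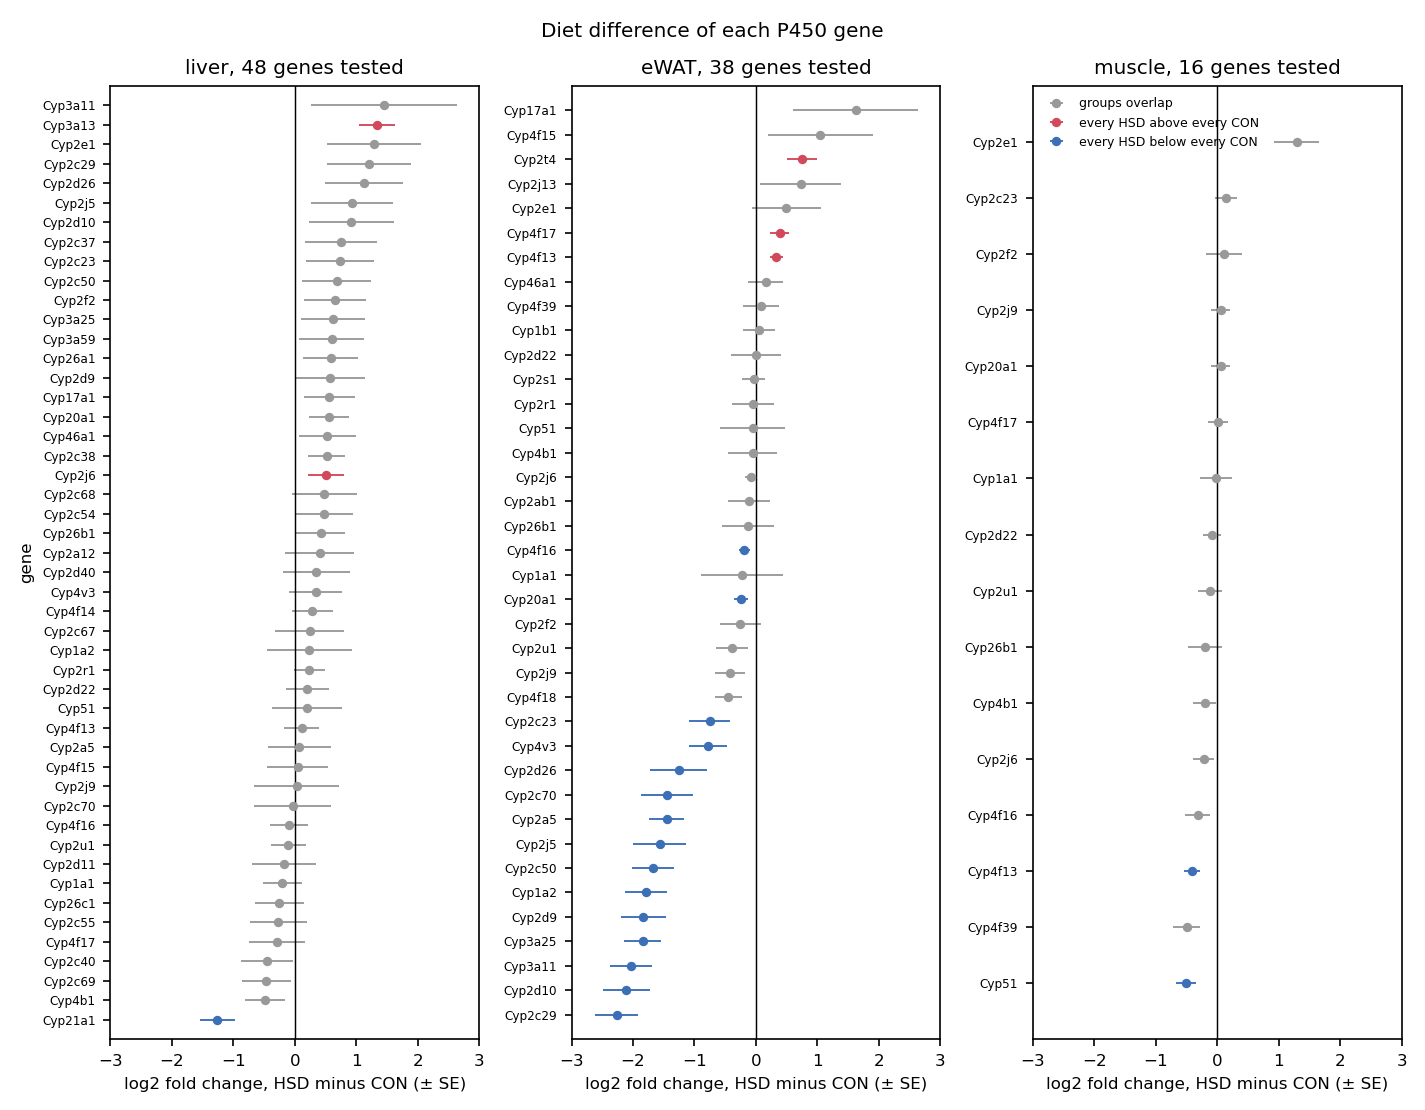
Log2 fold change on the log2(FPKM + 0.5) scale, HSD minus CON, with its standard error (horizontal lines), for the members tested in liver (48 genes), eWAT (38) and muscle (16), each panel ordered by value. Red marks genes with every HSD library above every CON library, blue the opposite and grey an overlap: liver is mostly grey, eWAT has 15 blue genes and muscle 2.

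Cyp3a13, a Cyp3a gene that is also known from the intestine, had the clearest separation in liver. Its level was 9.45 FPKM in CON14L, 11.8 in CON72L, 14.4 in CON16L, 35.2 in HS2L, 29.4 in HS4L and 27.3 in HS5L. All 3 HSD livers lay above all CON livers, with means of 11.9 ± 2.49 and 30.6 ± 4.08 FPKM (SD, n = 3) and a log2 fold change of 1.34 ± 0.30 (SE), and its adjusted p was 0.764. Without CON16L the value was 1.48 (adjusted p = 0.506), and in the study's libraries 1.56 (adjusted p = 0.0596). Cyp2j6, an arachidonic acid epoxygenase gene, was 19.2 FPKM in CON14L, 19.3 in CON72L, 16.0 in CON16L, 24.1 in HS2L, 23.1 in HS4L and 31.8 in HS5L. Its groups did not overlap either, at a log2 fold change of 0.51 ± 0.29 (SE), but they overlapped with mitochondrially encoded genes left out, at 0.15 ± 0.42 (SE). Cyp21a1, the steroid 21-hydroxylase of the adrenal gland, was 1.899 FPKM in CON14L, 0.919 in CON72L, 1.04 in CON16L, 0.179 in HS2L, 0.180 in HS4L and 0.328 in HS5L. Every HSD liver was below every CON liver at this low level, with a log2 fold change of -1.26 ± 0.29 (SE) and an adjusted p of 0.764.

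The abundant clearance enzymes had overlapping groups. Cyp2e1 was 229 FPKM in CON14L, 508 in CON72L, 849 in CON16L, 2320 in HS2L, 1426 in HS4L and 439 in HS5L. The 2 highest values were both of HSD mice, but HS5L lay below 2 of the CON livers, and the log2 fold change was 1.29 ± 0.77 (SE). Cyp3a11, the main testosterone 6β-hydroxylase and a target of the pregnane X receptor, was 8.08 FPKM in CON14L, 95.9 in CON72L, 118 in CON16L, 258 in HS2L, 236 in HS4L and 32.0 in HS5L. Its lowest values were in CON14L and HS5L, the libraries with the largest mitochondrial shares, and its log2 fold change of 1.45 ± 1.19 (SE) was the largest in liver. With mitochondrially encoded genes left out it was 1.09 ± 0.91 (SE). Cyp3a11 then had 111 ± 78.4 FPKM in CON and 215 ± 137 FPKM in HSD livers (SD, n = 3), still with overlap. Cyp2c29 was 13.5 FPKM in CON14L, 49.2 in CON72L, 58.0 in CON16L, 121 in HS2L, 105 in HS4L and 38.9 in HS5L, the same order of libraries within each group. Cyp3a25 ran otherwise, with 353 FPKM in CON14L, 328 in CON72L, 223 in CON16L, 382 in HS2L, 289 in HS4L and 854 in HS5L. HS5L was thus the highest liver library for Cyp3a25 and the lowest HSD library for Cyp3a11, although both are Cyp3a genes. Cyp1a2 was 85.8 FPKM in CON14L, 380 in CON72L, 472 in CON16L, 329 in HS2L, 341 in HS4L and 225 in HS5L. The HSD values lay inside the CON range, and the log2 fold change of 0.24 ± 0.69 (SE) became -0.13 with mitochondrially encoded genes left out.

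**Figure D3:**
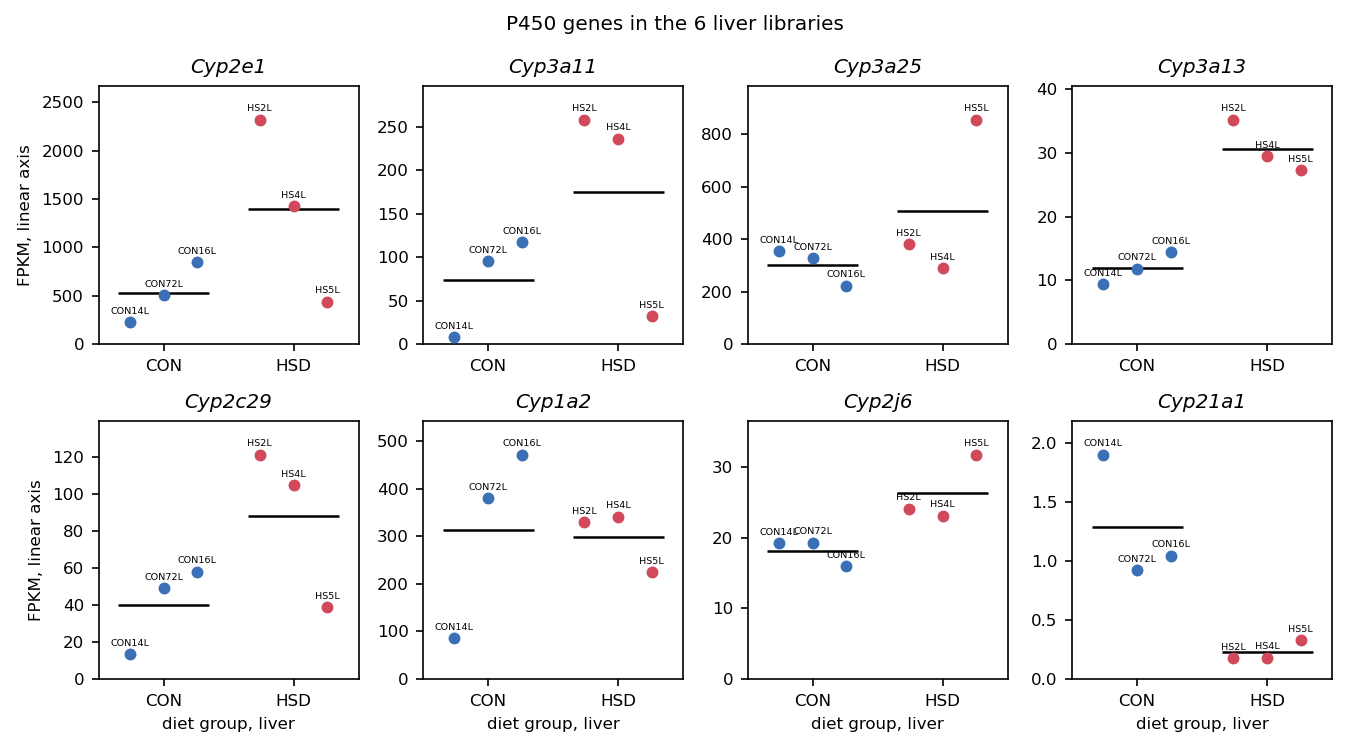
FPKM of 8 P450 genes in each of the 6 liver libraries (points, linear axis from 0), with the mean of each diet group as a line. The groups are apart for Cyp3a13, Cyp2j6 and Cyp21a1, and overlap for the other 5 genes, with CON14L lowest for Cyp2e1, Cyp3a11, Cyp2c29 and Cyp1a2.

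CON14L was the lowest library for 24 of the 48 members and for 37.3% of all genes, and HS2L the highest for 17 members and for 16.8% of all genes. The summed FPKM of the 55 genes was 2230 in CON14L, 4741 in CON72L, 5226 in CON16L, 8372 in HS2L, 6589 in HS4L and 4527 in HS5L, and the groups overlapped. With mitochondrially encoded genes left out, the sums were 5691 to 7628 FPKM in CON and 7787 to 9998 FPKM in HSD livers, so that the groups were narrowly apart. The summed hepatocyte markers were 21710 FPKM in CON14L, 79843 in CON72L, 96462 in CON16L, 103204 in HS2L, 103974 in HS4L and 48307 in HS5L, and their part in the result was not tested. By subfamily, the 12 Cyp2c genes summed to 1115 ± 397 FPKM in CON and 1597 ± 478 FPKM in HSD livers (SD, n = 3), with overlap. The 4 Cyp3a genes summed to 359, 376 and 440 FPKM in the CON livers and to 558, 680 and 930 FPKM in the HSD livers, so that the groups were apart, at a ratio of means of 1.84. With mitochondrially encoded genes left out the Cyp3a sums overlapped, at 483 to 960 FPKM in CON and 660 to 1672 FPKM in HSD livers and a ratio of 1.46. The 4 Cyp2j genes summed to 76.6, 107 and 116 FPKM in CON and to 119, 203 and 209 FPKM in HSD livers, also apart, and they stayed so with those genes left out, at 156 to 196 and 214 to 247 FPKM. The gap between 116 and 119 FPKM was narrow. Of these genes, Cyp2j9 was 41.1 FPKM in HS5L and 6.81 to 27.5 FPKM in the other livers. Its groups overlapped, at a log2 fold change of 0.03 ± 0.70 (SE). The 7 Cyp4f genes had nearly the same mean in both groups, at a ratio of 1.10. Of the pericentral members, namely Cyp1a2, Cyp2e1, Cyp2c29, Cyp2c37, Cyp2c50, Cyp2c54, Cyp2a5 and Cyp3a11, none had groups apart, and their log2 fold changes ran from 0.07 to 1.45. The periportal Cyp2f2 had 0.65 ± 0.51 (SE), within the range of the pericentral genes. The male-biased Cyp2d9 had at least 164 FPKM in every liver, whereas 9 female-biased Cyp names reached at most 1.56 FPKM in any of them.

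Over the 11 tested fatty acid and eicosanoid genes, the log2 fold changes ran from -0.49 to 0.93 with a median of 0.05. The largest was Cyp2j5, an epoxygenase gene of liver and kidney, with 29.7 FPKM in CON14L, 71.3 in CON72L, 91.6 in CON16L, 165 in HS2L, 179 in HS4L and 46.3 in HS5L. HS5L lay inside the CON range, and the value was 0.93 ± 0.66 (SE). Cyp4b1 had the lowest value, -0.49 ± 0.32 (SE), at 3.90 ± 1.18 FPKM in CON and 2.68 ± 1.11 FPKM in HSD livers (SD, n = 3). The retinoic acid hydroxylase gene Cyp26a1 had 12.7 ± 6.57 FPKM in CON and 18.6 ± 7.36 FPKM in HSD livers, and the vitamin D 25-hydroxylase gene Cyp2r1 had 2.81 ± 0.423 and 3.45 ± 0.965 FPKM; both overlapped. Cyp51, lanosterol demethylase of cholesterol synthesis, had 7.53 ± 4.16 FPKM in CON and 8.42 ± 4.35 FPKM in HSD livers.

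In the 4 liver libraries of the study's quality table, CON14L, CON72L, HS2L and HS4L, 0 of 46 tested members passed the threshold, against 0.351% of all genes. At an unadjusted p under 0.05 there were 9 members, against 31.7% of all genes. Every HSD library was above both CON libraries for 22 members (45.3% of all genes) and below both for 5 (19.3%). The largest differences there were Cyp3a11 with a log2 fold change of 3.11 (adjusted p = 0.0868), Cyp2e1 with 2.41 (adjusted p = 0.0878) and Cyp2c29 with 2.10 (adjusted p = 0.0815).

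The partners and regulators of P450 enzymes were taken from 5 lists, and none of their genes was called in liver, eWAT or muscle. Of the 8 tested electron transfer partners in liver, 0 had an unadjusted p under 0.05; P450 oxidoreductase, Por, was 14.3 FPKM in CON14L, 23.3 in CON72L, 32.9 in CON16L, 34.5 in HS2L, 23.0 in HS4L and 21.9 in HS5L, with overlap. Among 12 genes of haem synthesis and breakdown in liver, Alas1, the rate-limiting enzyme of haem synthesis, was 45.99, 27.3 and 30.9 FPKM in the CON livers and 19.8, 9.89 and 13.9 FPKM in the HSD livers, apart at a log2 fold change of -1.25 ± 0.37 (SE, adjusted p = 0.764). Its groups stayed apart with mitochondrially encoded genes left out. Ferrochelatase, Fech, the last enzyme of the same path, was apart in the other direction at 0.68 ± 0.27 (SE), but not with those genes left out. Of 10 tested nuclear receptors and related factors of xenobiotic and lipid sensing, 3 were higher in every HSD liver (8.62% of all genes) and 0 lower (3.47%), and with mitochondrially encoded genes left out 0 were apart. The constitutive androstane receptor gene Nr1i3 had 2.25 ± 1.05 FPKM in CON and 6.05 ± 3.30 FPKM in HSD livers, with overlap. Of 9 tested hepatocyte transcription factors, 5 were higher in every HSD liver (8.62% of all genes) and 0 lower (3.47%), with a median log2 fold change of 0.68. With mitochondrially encoded genes left out only Foxa3 and Prox1 of the 5 had groups apart (3.05% of all genes). The nuclear receptor gene Hnf4a was 76.9, 70.9 and 62.5 FPKM in CON and 124, 132 and 115 FPKM in HSD livers, and its groups overlapped with those genes left out. Of 7 tested genes of growth hormone signalling and sex-biased repression, only Stat5b was apart, with 0.52 ± 0.25 (SE), and it overlapped with those genes left out.

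The eWAT comparison asks the same of the adipose depot. None of the 38 tested members passed the threshold in limma, and neither did any gene (0%). At an unadjusted p under 0.05 there were 15 members, 12 lower and 3 higher in HSD, against 16.7% of all genes, and limma voom on recovered fragments called 0. Every HSD library was below every CON library for 15 members (12.4% of all genes) and above for 3 (16.2%). The median log2 fold change was -0.21 over the members and 0.08 over all genes. Of the 15 lower members, 11 had an HSD mean under 0.5 FPKM and passed the filter on low values through the CON group, so their number is no support for a difference.

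Of the 15 lower members, 12 had a mean more than 10 times higher in CON liver than in CON eWAT. Cyp2c29 was 2.63 FPKM in CON16W, 2.59 in CON71W, 1.08 in CON72W, 0.0479 in HS2W, 0 in HS3W and 0 in HS5W. The 3 CON libraries of eWAT held 304 fragments of it and the HSD libraries 2, and its log2 fold change of -2.27 ± 0.35 (SE) on the log2(FPKM + 0.5) scale understates the change of so low a gene (adjusted p = 0.114). Cyp3a11 was 1.37 FPKM in CON16W, 2.77 in CON71W, 1.11 in CON72W, 0.0288 in HS2W, 0.0319 in HS3W and 0.0150 in HS5W, a total of 420 fragments in CON and 5 in HSD. Cyp2d9 was 2.98 FPKM in CON16W, 5.11 in CON71W, 1.76 in CON72W, 0.551 in HS2W, 0.642 in HS3W and 0.316 in HS5W. In all of these CON71W was at or near the top and the HSD libraries at the bottom. The remaining 9, Cyp2d10, Cyp3a25, Cyp1a2, Cyp2c50, Cyp2j5, Cyp2a5, Cyp2c70, Cyp2d26 and Cyp2c23, had CON means between 0.766 and 2.06 FPKM and HSD means between 0.00837 and 0.388 FPKM.

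Hepatocyte markers ran beside these genes. Of 26 hepatocyte markers, 24 were lower in every HSD eWAT library than in every CON one, and their summed FPKM was 166 to 452 in CON and 17.2 to 29.0 in HSD. Albumin, Alb, was 108 FPKM in CON16W, 167 in CON71W, 53.9 in CON72W, 7.85 in HS2W, 3.30 in HS3W and 5.87 in HS5W. As a percent of their mean over the 6 liver libraries, the markers had a median of 0.506% in CON16W, 0.854% in CON71W, 0.290% in CON72W, 0.0645% in HS2W, 0.0246% in HS3W and 0.0278% in HS5W. The 12 members had 0.618%, 0.871%, 0.300%, 0.0301%, 0.0194% and 0.0122% in the same libraries. The order was the same among the CON libraries but not among the HSD libraries. These 12 were chosen for being lower in every HSD library, so their fall was set by the choice and is no support. With no filter on the eWAT level, 32 members were more than 10 times higher in CON liver than in CON eWAT, of which 20 were lower in every HSD eWAT library and 0 higher. Of the 784 genes of the table that were above 0 in eWAT and so much higher in liver, 25% were lower and 9.82% higher. Of the other 23 members, 3 were lower and 3 higher, against 9.76% and 14.4% of the other genes. These shares are not like for like. Members had to reach 0.5 FPKM in a tissue, and 2 of them were at 0 in all eWAT libraries. The genes of the table only had to be above 0 in eWAT. The part of hepatocyte RNA in these values was not tested, and in bulk tissue fewer cells of a type and less RNA per cell cannot be told apart.

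**Figure D4:**
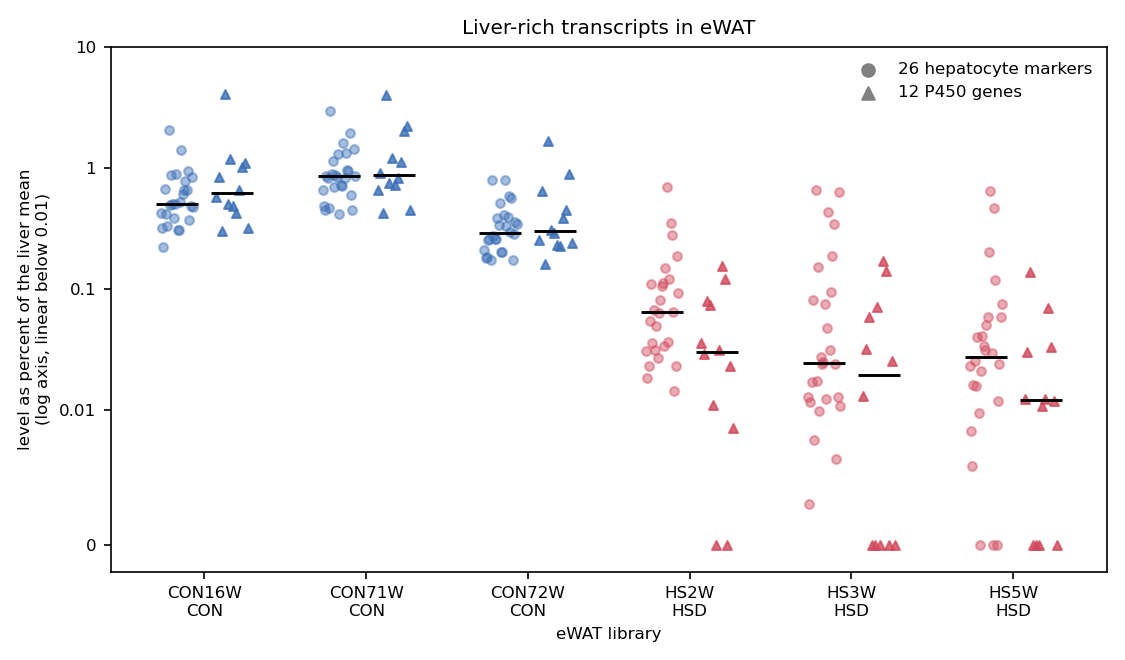
Level of 26 hepatocyte markers (circles) and of 12 P450 genes that were lower in every HSD eWAT library (triangles) in each eWAT library, as a percent of the mean of the gene over the 6 liver libraries, on a log axis that is linear below 0.01; black lines are medians. The medians of both lie between 0.290% and 0.871% in the CON libraries and between 0.0122% and 0.0645% in the HSD libraries. The 12 genes were chosen for being lower in HSD, so their fall is set by the choice.

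Cyp2e1, Cyp4b1 and Cyp2d22, the most abundant members in eWAT, had overlapping groups. Cyp2e1 was 1402 FPKM in CON16W, 942 in CON71W, 990 in CON72W, 2131 in HS2W, 664 in HS3W and 2567 in HS5W. HS2W and HS5W lay above all CON libraries and HS3W below them, and the log2 fold change was 0.49 ± 0.56 (SE). Cyp4b1 was 58.0 FPKM in CON16W, 52.5 in CON71W, 53.9 in CON72W, 72.8 in HS2W, 26.9 in HS3W and 74.4 in HS5W. Cyp2d22 was 25.2 FPKM in CON16W, 23.8 in CON71W, 22.6 in CON72W, 34.5 in HS2W, 11.9 in HS3W and 32.9 in HS5W, the same picture as for Cyp2e1 and Cyp4b1. The summed adipocyte markers were 20291 FPKM in HS2W, 6555 in HS3W and 21408 in HS5W, against 15653 to 16737 in CON.

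Without HS3W, 9 of 37 tested members passed the threshold, 8 lower and 1 higher, against 1.21% of all genes. The called gene that rose was Cyp2e1, with a log2 fold change of 1.10 ± 0.20 (SE, adjusted p = 0.0372). The 8 that fell, Cyp1a2, Cyp2a5, Cyp2c29, Cyp2c50, Cyp2d10, Cyp2d9, Cyp3a11 and Cyp3a25, were all among the 12 liver-rich genes above, beside the lower hepatocyte markers. Their HSD means were between 0.0126 and 0.434 FPKM. They passed the filter on low values through the CON group, so their number is no support for a difference. In the same limma fit, Cyp2d22 and Cyp4b1 were higher below the 2-fold limit, at 0.49 (adjusted p = 0.0284) and 0.42 (adjusted p = 0.033). Cyp51 was lower below that limit, at -0.68 (adjusted p = 0.0323). In the study's libraries, which hold HS3W but not HS5W, 0 of 39 members passed (0% of all genes), with 18 lower in both HSD libraries (16.6%) and 4 higher (26.6%). HS3W was also the library in which some members were highest: Cyp17a1, the steroid 17α-hydroxylase, was 7.78 FPKM there and at most 0.529 FPKM in the other eWAT libraries. Cyp4f15 was 6.88 FPKM in HS3W and at most 1.73 FPKM elsewhere in eWAT, Cyp2j13 was 2.79 and at most 0.532 FPKM, and Cyp51 was 20.1 and at most 9.56 FPKM. HS3W held the epididymal markers, and their part in these values was not tested.

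Members that were apart in eWAT without being liver-rich were few. Cyp4f13, a leukotriene and fatty acid hydroxylase gene, was 7.08 FPKM in CON16W, 6.97 in CON71W, 6.88 in CON72W, 8.04 in HS2W, 9.996 in HS3W and 8.79 in HS5W. It was higher in every HSD library by a small margin, at a log2 fold change of 0.33 ± 0.10 (SE, adjusted p = 0.225). Cyp4f17, of the same chromosome 17 cluster, had 10.3 ± 0.471 FPKM in CON and 13.8 ± 2.72 FPKM in HSD (SD, n = 3), and Cyp2t4 had 0.304 ± 0.0650 and 0.855 ± 0.102 FPKM, both apart. Cyp4v3 was 16.5 FPKM in CON16W, 21.5 in CON71W, 13.9 in CON72W, 13.7 in HS2W, 6.21 in HS3W and 10.5 in HS5W, lower in every HSD library at -0.79 ± 0.31 (SE). Cyp20a1, an orphan P450, was 15.005, 15.1 and 15.4 FPKM in CON and 14.1, 10.9 and 13.3 FPKM in HSD, and Cyp4f16 was 6.73 ± 0.483 and 5.85 ± 0.301 FPKM. Cyp1b1 had nearly equal means, 12.7 ± 3.97 and 12.9 ± 2.80 FPKM. Of 8 tested electron transfer partners in eWAT, 0 were higher and 3 lower in every HSD library (16.2% and 12.4% of all genes). The counts were 3 and 5 of 12 for haem genes, and 1 and 2 of 8 for receptors. They were 0 and 1 of 4 for hepatocyte factors, and 1 and 2 of 7 for growth hormone genes. Cytochrome b5 reductase, Cyb5r3, was 58.4 ± 3.38 FPKM in CON and 41.0 ± 4.39 FPKM in HSD. The aryl hydrocarbon receptor, Ahr, was 2.99 ± 0.189 and 5.28 ± 0.954 FPKM, while Rxra and Nr3c1 of its list were lower. Alas1 was lower in every HSD library of eWAT and of muscle (15.6% of all genes in muscle). None of these genes was called.

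In muscle, 0 of 16 tested members passed the threshold in limma, against 0.323% of all genes. At an unadjusted p under 0.05 there were 4, namely Cyp2e1, Cyp4f13, Cyp51 and Cyp4f39, against 16.3% of all genes, and limma voom called 0. Every HSD library was above every CON library for 0 members (6.72% of all genes) and below for 2 (15.6%). The median log2 fold change was -0.10 over the members and -0.06 over all genes.

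Cyp2e1 had the largest difference in muscle. It was 7.83 FPKM in CON16M, 11.3 in CON71M, 4.599 in CON72M, 10.9 in HS2M, 28.5 in HS3M and 21.7 in HS5M. HS3M and HS5M lay above all CON libraries and HS2M below CON71M, with means of 7.91 ± 3.36 and 20.4 ± 8.86 FPKM (SD, n = 3) and a log2 fold change of 1.29 ± 0.36 (SE, adjusted p = 0.126). With the replicate number as a block, its adjusted p was 0.0439 and it was the only one of the 16 members called, against 0.498% of all genes. Replicate numbers join different CON and HSD mice, so this block has no pairing in the design behind it. The summed FPKM of the adipocyte markers in the muscle libraries was 136 to 239 in CON and 132 to 279 in HSD, and 0 of 9 had groups apart. As a percent of the eWAT mean, Cyp2e1 was 0.540% in CON16M, 0.780% in CON71M, 0.317% in CON72M, 0.754% in HS2M, 1.97% in HS3M and 1.49% in HS5M, and the median adipocyte marker was 0.618%, 1.14%, 0.489%, 0.295%, 0.973% and 0.761%. Cyp2e1 was below the median marker in the CON libraries and above it in the HSD libraries. It lay inside the range of the single markers in each library, which in HS2M ran from 0.101% to 13.1%. The part of adipocyte RNA in these values was not tested.

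**Figure D5:**
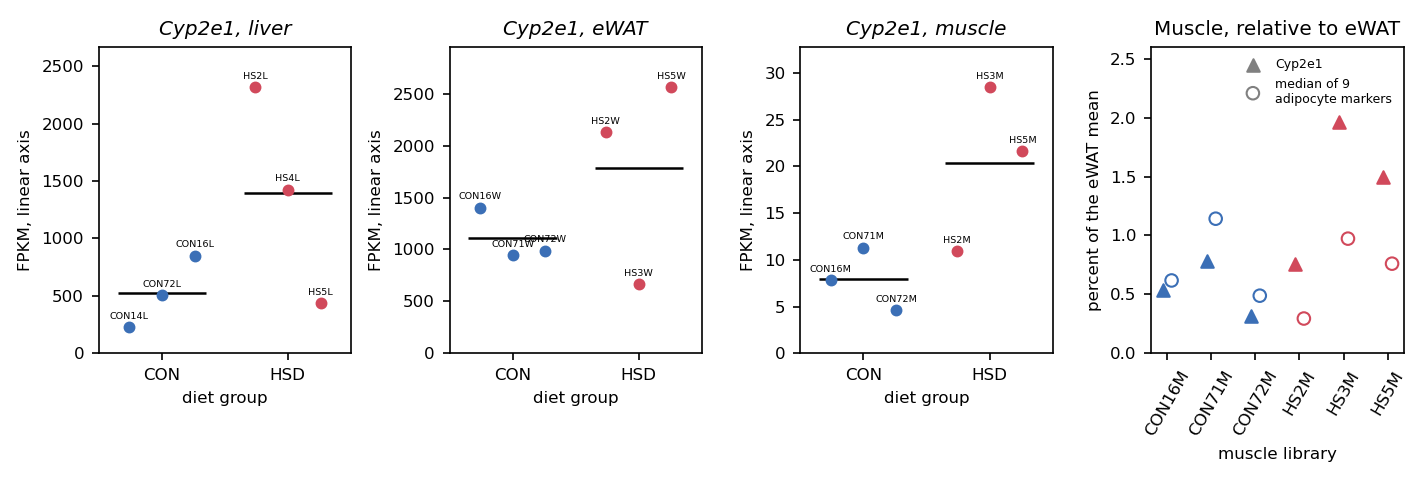
FPKM of Cyp2e1 by library in liver, eWAT and muscle (points, linear axes from 0, lines are group means), and, on the right, Cyp2e1 (triangles) and the median of 9 adipocyte markers (circles) in each muscle library as a percent of their eWAT mean. HSD means are higher in all 3 tissues with overlap in each, and in muscle Cyp2e1 lies above the marker median in the 3 HSD libraries. The part of adipocyte RNA was not tested.

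The other muscle members showed smaller differences. Cyp51 was 1.49 FPKM in CON16M, 1.61 in CON71M, 1.903 in CON72M, 0.953 in HS2M, 1.38 in HS3M and 0.785 in HS5M, lower in every HSD library at -0.51 ± 0.17 (SE, adjusted p = 0.184). Cyp4f13 was 2.35, 2.605 and 2.42 FPKM in CON and 1.64, 1.58 and 1.997 FPKM in HSD, again apart, at -0.40 ± 0.13 (SE, adjusted p = 0.168). In eWAT this gene had been higher in every HSD library. Cyp4f39 had 4.62 ± 1.55 FPKM in CON and 3.04 ± 0.471 FPKM in HSD with overlap, and the 7 Cyp4f genes summed to 7.81, 10.1 and 11.1 FPKM in CON and to 5.78, 7.20 and 7.72 FPKM in HSD. Cyp2d22 and Cyp4b1 overlapped, with log2 fold changes of -0.08 and -0.21.

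A further limma fit asked whether the HSD minus CON difference of a member was unequal between tissues. It fitted all 18 libraries with 1 spread per gene for the 3 tissues, and did not model that some mice gave several tissues. The SEs of the called members were below those of the liver fit alone, as for Cyp3a13 with 0.24 against 0.30. These SEs and adjusted p-values can therefore understate the spread in liver. Between liver and eWAT, 6 of 45 tested members passed an adjusted p under 0.05, against 0.788% of all genes. Between liver and muscle it was 0 (0.0612% of all genes), and between eWAT and muscle 0 (0%). These calls depended on the processing: 2 of the 6 were called with a pseudocount of 1 (Cyp3a13 and Cyp4f14), 4 with mitochondrially encoded genes left out (Cyp2c29, Cyp2c50, Cyp2d10 and Cyp3a13), and Cyp3a13 alone with median-ratio scaling or without CON71W. With 1 library left out, between 1 and 13 members were called, 13 of them without HS5L. The 6 were Cyp3a13, with a difference of 1.81 ± 0.24 (SE, adjusted p = 0.0034), Cyp2c29 with 3.48 ± 0.66 (adjusted p = 0.0243), Cyp3a25 with 2.46 ± 0.46 (adjusted p = 0.021), Cyp4f14 with 1.49 ± 0.28 (adjusted p = 0.0227), Cyp2c50 with 2.36 ± 0.50 (adjusted p = 0.0437) and Cyp2d10 with 3.03 ± 0.66 (adjusted p = 0.0451). The log2 fold changes of all 6 were above 0 in liver, although that of Cyp4f14 was -0.087 with mitochondrially encoded genes left out and that of Cyp3a25 was -0.036 in the study's libraries. Their eWAT level was at most 3.12 FPKM in any library, beside hepatocyte markers that moved the same way in eWAT. Cyp3a13 in eWAT was 0.274 FPKM in CON16W, 0.424 in CON71W, 0.102 in CON72W and at most 0.0825 FPKM in HSD. For Cyp2e1 the differences between tissues were 0.80 ± 0.92, 0.00 ± 0.92 and -0.80 ± 0.92 (SE), so that its log2 fold changes of 1.29 in liver, 0.49 in eWAT and 1.29 in muscle could not be told apart at this spread.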

How the data were processed

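RNA-seq of 18 libraries was analysed. According to the methods of the study, cutadapt trimming and HISAT2 alignment to mm10 came first, and the authors then made the deposited FPKM with cuffdiff on an Ensembl annotation; the submitters' processing notes also name HTSeq 0.9.1 and mm9. Levels were tested with limma 3.58.1 in R 4.3.3 after a log2 transform with 0.5 added; a gene entered where its tissue mean reached 0.5 FPKM, with a mean-variance trend and Benjamini-Hochberg adjustment over all genes; all tests were 2-sided. A call needed an adjusted p under 0.05 and at least a 2-fold difference, and tests of the difference between tissues needed only the adjusted p. Whole fragments (within 0.05) were recovered from the FPKM for voom. The test was tried on simulated data. The simulation held no uneven mitochondrial shares and no library set apart by markers of another tissue. It does not show how the test handles these. Replicate numbers join different CON and HSD mice and are not a pairing of the design. Deviations of same-numbered samples correlated at 0.383, 0.177 and 0.184 in muscle. They did so at -0.197, 0.0608 and 0.414 in eWAT and at -0.473, 0.3955 and -0.213 in liver. A block on the replicate number was fitted as an alternative. P-values measure the spread between these mice. Genes were named by their CON level, by groups that do not overlap, by a list of known enzymes and by a call. The members and lists were chosen with earlier results of these data known.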

Additional observations from a re-analysis of the deposited data

Results flagged for a closer look

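The HSD minus CON difference in liver was above that in eWAT, in log2 units with the SE of limma, for Cyp2c29 by 3.48 ± 0.66, Cyp2c50 by 2.36 ± 0.50, Cyp2d10 by 3.03 ± 0.66, Cyp3a13 by 1.81 ± 0.24, Cyp3a25 by 2.46 ± 0.46 and Cyp4f14 by 1.49 ± 0.28. These 6 passed an adjusted p under 0.05 in the test of the difference between tissues. That test used 1 spread per gene over the 3 tissues, which can understate the spread in liver. With a pseudocount of 1 only Cyp3a13 and Cyp4f14 of the 6 were called, and with median-ratio scaling or without CON71W only Cyp3a13; with a library left out, 1 to 13 members were called. Hepatocyte markers were lower in HSD than in CON eWAT beside these genes, and their part in the result was not tested.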

How the results depend on the processing

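Of 1196 values computed under alternatives, 1074 stayed on the same side. No member was called in liver or eWAT by any other pseudocount, filter, scaling or by voom. Array weights called 9 members in liver, 9 in eWAT and 1 in muscle (8.98%, 1.6% and 0.443% of all genes), and 1 fit over all tissues called 2 in liver and 6 in eWAT (0.543% and 1.56%). Median-ratio scaling left 1 muscle member higher in every HSD library, where 6.72% of all genes were without that scaling. In the study's libraries, liver held 22 members higher and 5 lower in every HSD library (45.3% and 19.3% of all genes). For the difference between liver and eWAT, 2 members were called with a pseudocount of 1, 1 with median-ratio scaling and 22 in the study's libraries (0.788%, 0.341% and 23.8% of all genes). Between liver and muscle these counts were 1, 1 and 6 (0.0995%, 0.0713% and 13.7%), and between eWAT and muscle the study's libraries gave 1 (1.35%). The cause was not tested.

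With each library left out in turn, the number of members called ran from 0 to 0 in liver, 0 to 9 in eWAT (9 without HS3W) and 0 to 1 in muscle (1 without HS2M). The called members that fell in eWAT without HS3W passed the filter on low values through the CON group. Members higher in every HSD library ran from 2 to 18 in liver (18 without HS5L), 3 to 6 in eWAT and 0 to 2 in muscle, and members lower from 1 to 5, 11 to 18 and 2 to 4. With fewer libraries, more of all genes are apart. In the study's liver libraries 45.3% of all genes were higher, against 8.62% over all liver libraries. These counts are therefore no support for a difference. Calls of the difference between liver and eWAT ran from 1 to 13 (13 without HS5L, 1 without CON71W; 4.86% and 0.285% of all genes), and those against muscle from 0 to 1 for liver and 0 to 1 for eWAT.

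The replicate block, which joins different mice, called 1 member in muscle, Cyp2e1. It changed no call in liver or eWAT.

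Directions of single genes turned in 48 of 977 values. The log2 fold changes that did so were, with median-ratio scaling in liver, Cyp2a5 -0.031, and with mitochondrially encoded genes left out in liver, Cyp1a2 -0.13, Cyp2a5 -0.30, Cyp2r1 -0.10, Cyp4f14 -0.087, Cyp4v3 -0.027 and Cyp51 -0.15, and with array weights in liver, Cyp1a2 -0.17, Cyp2a5 -0.30 and Cyp51 -0.030, and with the study's libraries in liver, Cyp3a25 -0.036, and with median-ratio scaling in eWAT, Cyp1b1 -0.011 and Cyp2d22 -0.059, and with array weights in eWAT, Cyp2f2 0.080 and Cyp4b1 0.39, and with voom on recovered fragments in eWAT, Cyp2d22 -0.0065, and with the study's libraries in eWAT, Cyp2d22 -0.22, Cyp2r1 0.095 and Cyp51 0.28, and with array weights in muscle, Cyp2d22 0.0083, Cyp2f2 -0.12 and Cyp2u1 0.060. The ranges with 1 library left out were in liver Cyp1a2 from -0.53 to 0.70, Cyp2a5 from -0.41 to 0.38, Cyp4v3 from -0.056 to 0.57, Cyp51 from -0.36 to 0.64 and Cyp2u1 from -0.31 to 0.020, and in eWAT Cyp1b1 from -0.17 to 0.27, Cyp51 from -0.68 to 0.28, Cyp2d22 from -0.26 to 0.49, Cyp2r1 from -0.38 to 0.13, Cyp2f2 from -0.49 to 0.11 and Cyp4b1 from -0.30 to 0.42, and in muscle Cyp2d22 from -0.18 to 0.011, Cyp20a1 from -0.069 to 0.15, Cyp2f2 from -0.11 to 0.41 and Cyp2u1 from -0.32 to 0.058. With 3 mice a group, an exact permutation test of a single gene cannot go below p = 0.1, and depth limits genes under 1 FPKM.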
